A study of Rattus rattus with 18 samples.

Results

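The miR-7 family was represented on the array by 4 probes of the 761 for rat microRNAs (miRNAs). They were taken by name as the guide strands rno-miR-7a-5p and rno-miR-7b and the passenger strands rno-miR-7a-1-3p and rno-miR-7a-2-3p, by a rule that names probes and uses no measured value, though earlier results of these data were known when the family was picked. Each was printed as 4 spots per array. The study compared sham-operated rats, rats with transient occlusion of the middle cerebral artery (tMCAO, a suture model of ischaemic stroke followed by reperfusion) and rats given remote limb postconditioning (PostC, brief bouts of limb ischaemia applied after the brain insult), with 3 rats a condition. All were Sprague Dawley rats, a strain of Rattus norvegicus as in the series title, although the organism field of the labels reads Rattus rattus. The study's methods describe male rats. From each of the 9 rats a core and a peri-ischaemic (peri) sample were hybridised, 1 array a sample and 18 arrays in all, with a single dye (Cy5). The labels give core samples as temporo-parietal cortex and peri samples as striatum, whereas the study's text assigns them the other way round, so the samples are called core and peri here. The labels of the PostC rats do not state an occlusion, while the series' design text writes tMCAO-PostC, which can be read as occlusion followed by postconditioning. The age of the rats was not given in the sources used here. The study's methods name more than 1 time of sacrifice after reperfusion and do not say which applies to these arrays.

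miR-7 is a conserved, brain- and endocrine-enriched miRNA whose guide strand pairs with target mRNAs through its seed, the bases next to its 5′ end. In the brain its best known partners are the circular RNA Cdr1as, which carries many seed matches and binds it, and the long noncoding RNA Cyrano, which directs its degradation. Mammals transcribe the same guide from more than 1 hairpin, one of them within an intron of Hnrnpk, so the opposite arms differ between hairpins while the guides are alike or nearly so.

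The deposited target sequences of the probes are shown because they set what each probe could and could not tell apart, with the seed (bases 2 to 8, counted from 1 at the 5′ end) in capitals.
rno-miR-7a-5p: uGGAAGACuagugauuuuguugu
rno-miR-7b: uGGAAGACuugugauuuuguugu
rno-miR-7a-1-3p: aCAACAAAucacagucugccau
rno-miR-7a-2-3p: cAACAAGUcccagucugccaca

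The guides, 23 bases each, shared their seed and differed by 1 base in 23, A10U from miR-7a-5p to miR-7b. The passenger strands, 22 bases each, matched at 18 of 21 bases when aligned with a shift of 1 base, with A8G, A11C and U22C by position in miR-7a-1-3p. Signal of either guide on the other guide's probe was therefore possible, and the guide values are uncertain to that extent. The guide sequence alone does not say which mir-7a hairpin a miR-7a-5p molecule came from, while the passenger sequences differ between the hairpins by these 3 bases and the shift. How well hybridisation told the passengers apart was not tested. The GC content was 34.8% for both guides, 40.9% for miR-7a-1-3p and 54.5% for miR-7a-2-3p, against a median of 50% over the 532 probes tested. The seed of miR-7a-1-3p was also that of rno-miR-3065-5p, and no other probe on the array had the seed of miR-7a-2-3p.

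A spot was read against its array's own detection limit, the median of its 612 empty spots plus 3 scaled median absolute deviations, which ran from 49.1 to 566 intensity units over the arrays. Empty spots outshone miRNA spots, by their medians, on 5 arrays (tMCAO core 3, tMCAO peri 3, PostC core 1, PostC core 2 and PostC peri 3, where the number is the rat of its condition). Levels are given as log2 of the background-corrected, normalised intensity, with 4 spots averaged, and probes above the limit on at least 3 arrays entered the tests, as all 4 did. Of the 9 neuronal marker miRNAs listed for this tissue, 8 were above the limit on all 18 arrays and miR-218a-5p on 16. The arrays measured bulk tissue, in which fewer cells of a type and less RNA per cell cannot be told apart.

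The guide miR-7a-5p was above the limit on 17 of 18 arrays, the exception being PostC peri 3. miR-7a-1-3p was above it on 16 arrays, miR-7a-2-3p on 13 and miR-7b on 7. When the limit was instead set on the lowest 25% of miRNA spots, miR-7a-5p, miR-7a-1-3p and miR-7a-2-3p were above it on all 18 arrays and miR-7b on 14. Levels of different probes are not set against each other, since probes differ in brightness for equal amounts of RNA. The 4 spots of a probe mostly lay close together, with a median SD of 0.13 for miR-7a-5p, 0.12 for miR-7b, 0.16 for miR-7a-1-3p and 0.11 for miR-7a-2-3p on the log2 scale. The largest SD was 0.36, 0.31, 0.27 and 0.54 in the same order. The last was on tMCAO core 1, where the spots of miR-7a-2-3p ran from 129 to 294 units.

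**Figure D1:**
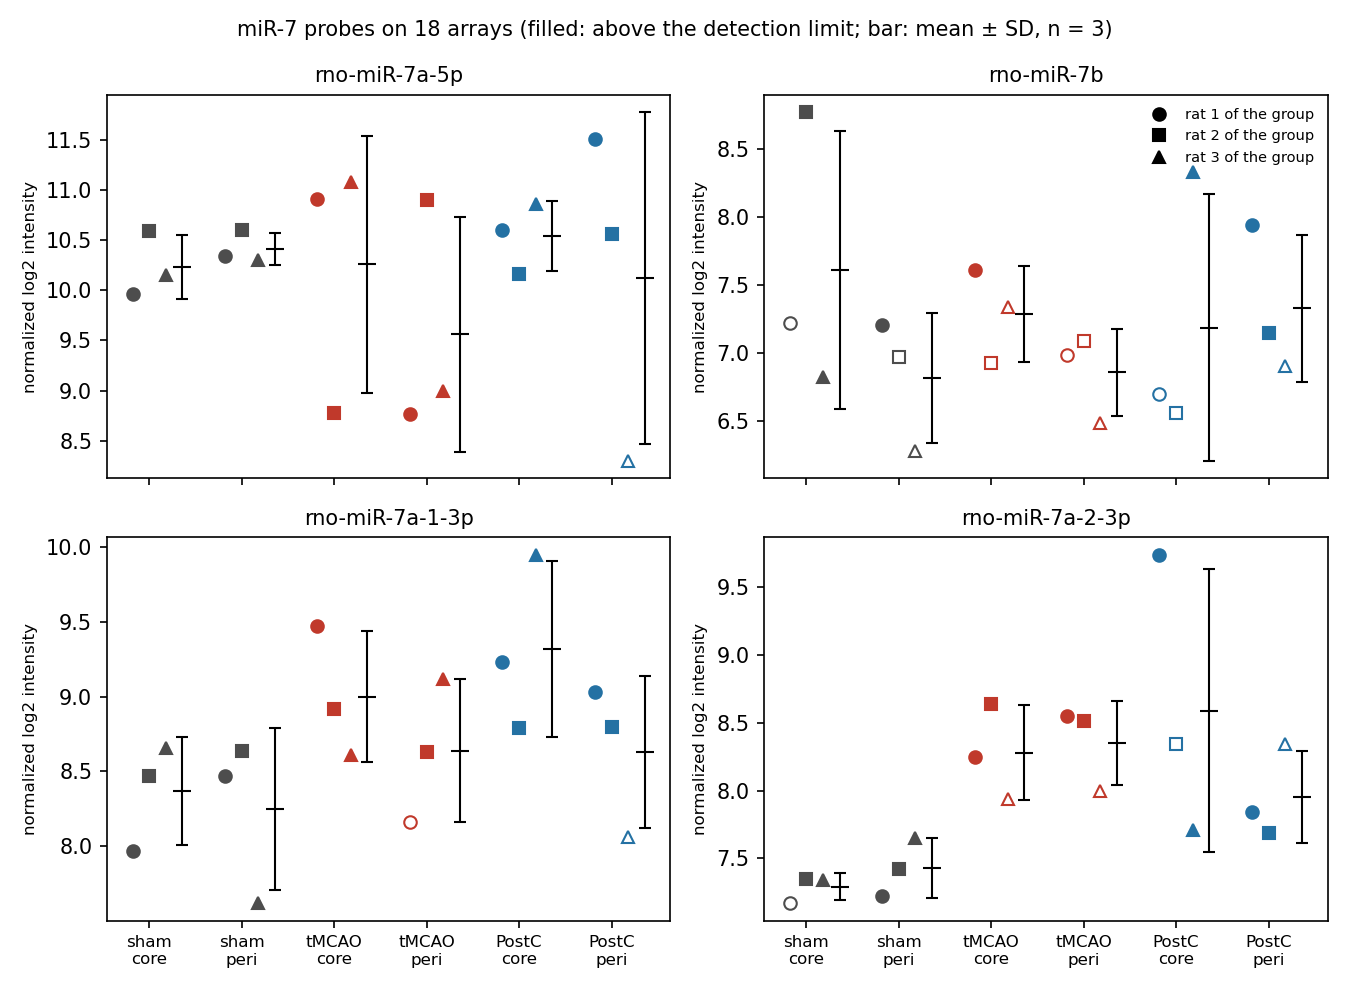
Normalised log2 intensity (vertical axes, a separate scale for each probe) of the 4 miR-7 probes on the 18 arrays by condition and region, with symbols for the rat, filled points above the array's detection limit, open points not above it, and bars for the mean ± SD of 3 rats. miR-7a-5p was tight in sham (9.96 to 10.60) and widely spread in tMCAO (8.77 to 11.08), and for miR-7a-2-3p the 12 tMCAO and PostC arrays all lay above the 6 sham arrays.

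Within each region the guide miR-7a-5p was spread more widely over tMCAO arrays than over sham arrays, while the means of both regions per rat were not, and no shift of its mean passed a test. In sham rats its level was 9.96, 10.59 and 10.15 in core and 10.34, 10.60 and 10.30 in peri. In tMCAO rats it was 10.91, 8.78 and 11.08 in core and 8.77, 10.90 and 9.00 in peri. The 6 sham arrays thus sat within a narrow band, while each tMCAO rat had one region above that band and the other well below it. In PostC rats the level was 10.60, 10.16 and 10.86 in core and 11.51, 10.56 and 8.30 in peri, so only the peri sample of rat 3 was low. In order, the group means were 10.54 ± 0.35 in PostC core, 10.41 ± 0.16 in sham peri, 10.26 ± 1.28 in tMCAO core, 10.23 ± 0.32 in sham core, 10.12 ± 1.65 in PostC peri and 9.56 ± 1.17 in tMCAO peri (SD, n = 3 each). No 2 neighbours in this order differed by more than their spread.

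The SD of miR-7a-5p among 3 rats exceeded that of 97.9% of tested probes in tMCAO core, 99.6% in tMCAO peri and 99.1% in PostC peri. It was not unusual in sham core (47.9%), sham peri (28.2%) or PostC core (32.5%). On the 4 arrays with the lowest levels the spot intensities before normalisation were low too. The median spot of miR-7a-5p read 119 units on tMCAO peri 1, 348 on tMCAO peri 3, 353 on tMCAO core 2 and 204 on PostC peri 3, and 708 to 4420 on the other 14 arrays. Within those 4 arrays the 4 spots had an SD of at most 0.20 on the log2 scale, which covers scatter within an array and not that between RNA samples or arrays. On tMCAO peri 3 the median spot lay just above the limit of 338 units, and on PostC peri 3 below the limit of 329 units, and both are among the 5 arrays with bright empty spots. tMCAO peri 1 was the dimmest array, with a median miRNA spot of 49.1 units against up to 261 on the others. The part of these array differences in the low values was not tested.

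**Figure D2:**
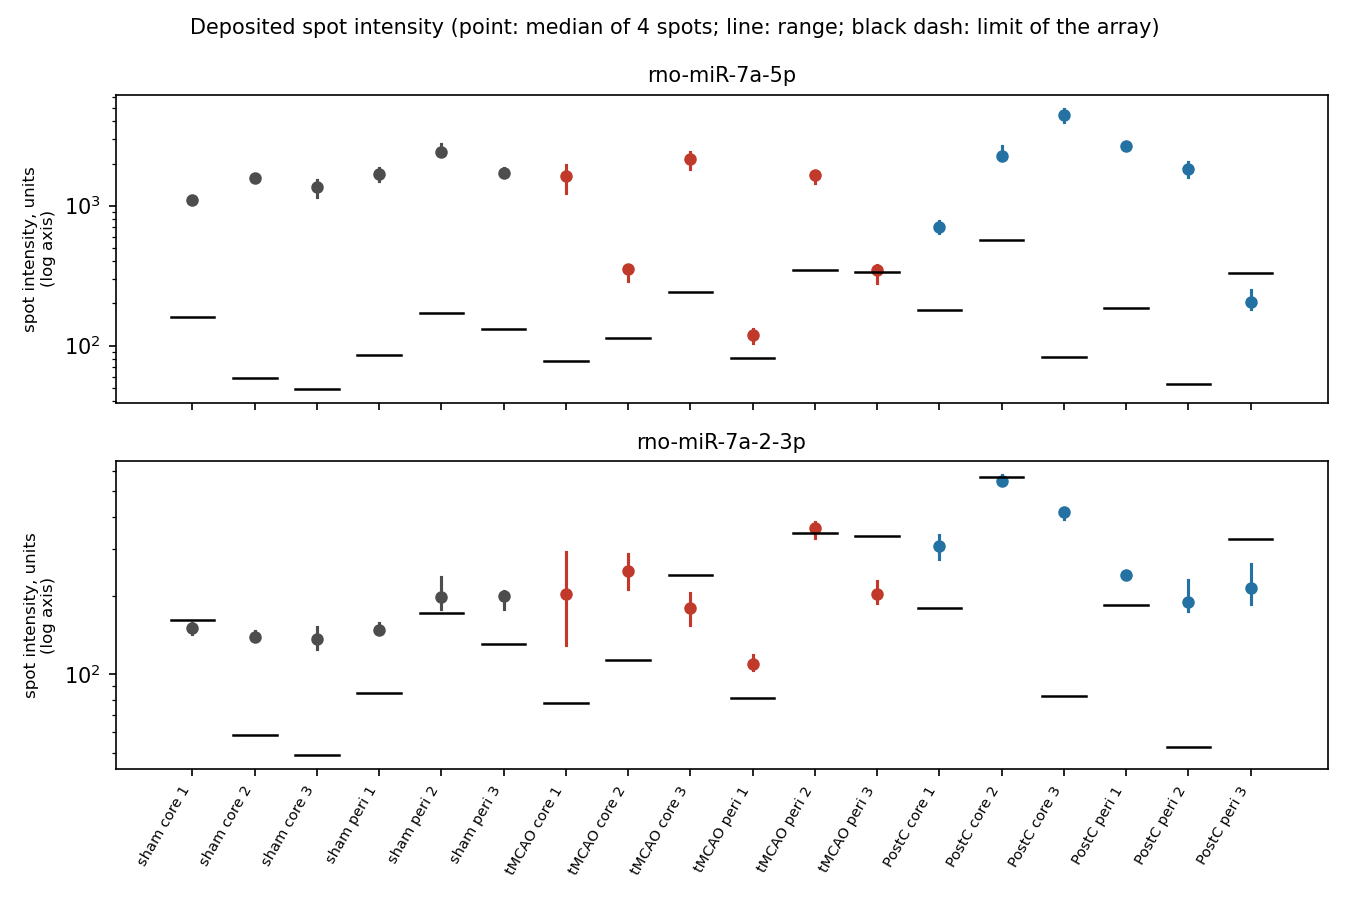
Deposited spot intensity (vertical axes in units, log scale) of miR-7a-5p and miR-7a-2-3p on each array, with the point at the median of 4 spots, the coloured line over their range and the black dash at the array's detection limit. Of the 18 arrays, 4 stood low for miR-7a-5p, while the medians of miR-7a-2-3p stayed between 110 and 548 units.

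Within each tMCAO rat the regions stood far apart, in a direction that was not the same in every rat. Core minus peri was 2.13, −2.12 and 2.08 log2 units in tMCAO rats 1, 2 and 3, and −0.38, −0.01 and −0.15 in the sham rats. The mean of both regions was 9.84, 9.84 and 10.04 in the tMCAO rats, an SD of 0.12, since a high region accompanied a low one in every rat. In PostC rats core minus peri was −0.91, −0.39 and 2.57.

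Whether occlusion changed the family's level was asked first on the mean of core and peri per rat. For miR-7a-5p the tMCAO mean was 9.91 ± 0.12 against 10.32 ± 0.24 in sham (SD, n = 3 rats each), and the rats of the 2 conditions did not overlap, which held for 41% of all tested probes. The log2 fold change was −0.42 (SE 0.34, 95% interval −1.18 to 0.34) and did not pass the test (limma, Benjamini-Hochberg adjusted p = 0.41). Median scaling of the arrays gave −1.10 (adjusted p = 0.057), and −2.03 in peri (adjusted p = 0.0692). In core the log2 fold change was 0.02 (SE 0.58, adjusted p = 0.986), and in peri −0.85 (SE 0.72, adjusted p = 0.593). Without 1 rat the core value ran from −0.39 (without tMCAO rat 3) to 0.76 (without tMCAO rat 2), and the peri value from −1.52 (without tMCAO rat 2) to −0.46 (without tMCAO rat 1). The intervals, −1.27 to 1.32 in core and −2.41 to 0.70 in peri, left room for changes of more than 2-fold in either direction in core and for a fall of more than 4-fold in peri. Of 532 probes, 11.8% were called in the rat means, 3.38% in core arrays and 0.564% in peri arrays.

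miR-7b, the other guide, was mostly not above the empty-spot limit. Its level was 7.22, 8.77 and 6.83 in sham core, 7.21, 6.97 and 6.28 in sham peri, 7.61, 6.93 and 7.34 in tMCAO core and 6.99, 7.09 and 6.49 in tMCAO peri. In PostC it was 6.70, 6.56 and 8.33 in core and 7.94, 7.15 and 6.91 in peri. The highest readings, sham core 2 at 364 units and PostC core 3 at 567 units, were above the limit, as were 5 others, and no tMCAO peri array was. In order, the group means were 7.61 ± 1.02 in sham core, 7.33 ± 0.54 in PostC peri, 7.29 ± 0.35 in tMCAO core, 7.19 ± 0.98 in PostC core, 6.86 ± 0.32 in tMCAO peri and 6.82 ± 0.48 in sham peri (SD, n = 3 each), with no neighbours apart by more than their spread. The fitted log2 difference between tMCAO and sham was −0.14 (SE 0.31, adjusted p = 0.779) in the rat means and −0.32 (SE 0.58, adjusted p = 0.755) in core, but with 1 of 6 tMCAO arrays and 3 of 6 sham arrays above the limit (4 and 5 of 6 when set on the lowest miRNA spots) the size of a change is uncertain. In peri no value is given, since no tMCAO array measured it above the limit.

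Of the passenger strands, miR-7a-2-3p passed the test after occlusion and miR-7a-1-3p did not. miR-7a-1-3p, from the mir-7a-1 hairpin, had levels of 7.97, 8.47 and 8.66 in sham core and 8.47, 8.64 and 7.62 in sham peri. In tMCAO it had 9.47, 8.92 and 8.61 in core and 8.16, 8.63 and 9.12 in peri. Single regions overlapped between the conditions, but the means per rat, 8.14 to 8.56 in sham and 8.78 to 8.86 in tMCAO, did not (as for 41% of probes). The log2 fold change of the rat means was 0.51 (SE 0.21, 95% interval 0.04 to 0.98), with an unadjusted p of 0.0356 that did not pass after adjustment (limma, adjusted p = 0.126). Median scaling of the arrays in place of loess turned it to −0.10, and a correction for GC content raised it to 0.64 (adjusted p = 0.0485). In core the log2 fold change was 0.63 (SE 0.44, adjusted p = 0.393) and in peri 0.39 (SE 0.40, adjusted p = 0.669), and the latter read −0.53 under median scaling.

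miR-7a-2-3p, from the mir-7a-2 hairpin, rose in tMCAO in the means per rat. In sham its level was 7.17, 7.35 and 7.34 in core and 7.22, 7.42 and 7.65 in peri. In tMCAO it was 8.25, 8.64 and 7.94 in core and 8.55, 8.51 and 8.0 in peri. Every tMCAO array lay above every sham array as normalised here, and the means per rat did not overlap, as for 41% of probes. The arrays overlapped under quantile normalisation (lowest tMCAO 7.23, highest sham 7.77), median scaling (7.65 and 7.72) and plain background subtraction (3.52 and 5.55). The log2 fold change of the rat means was 0.96 (SE 0.26, 95% interval 0.39 to 1.53), a 1.94-fold rise, with an unadjusted p of 0.00371 (limma, adjusted p = 0.0372). It was the only call among 64 tests of the 4 probes over 16 comparisons. Among the 532 probes it ranked 53rd by p, of the 63 called (11.8%), and 24 of those 63 were higher in tMCAO (4.51% of all tested).

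In core the log2 fold change of miR-7a-2-3p was 0.99 (SE 0.49, adjusted p = 0.262), and in peri 0.92 (SE 0.29, unadjusted p = 0.00732, adjusted p = 0.179). The peri value was 0.32 under median scaling (adjusted p = 0.385) and 0.61 under quantile normalisation (adjusted p = 0.462). The rats did not overlap in either region, as for 41% of probes in core and 31.6% in peri. The difference between the core change and the peri change was 0.06 (95% interval −1.19 to 1.31, adjusted p = 0.973).

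**Figure D3:**
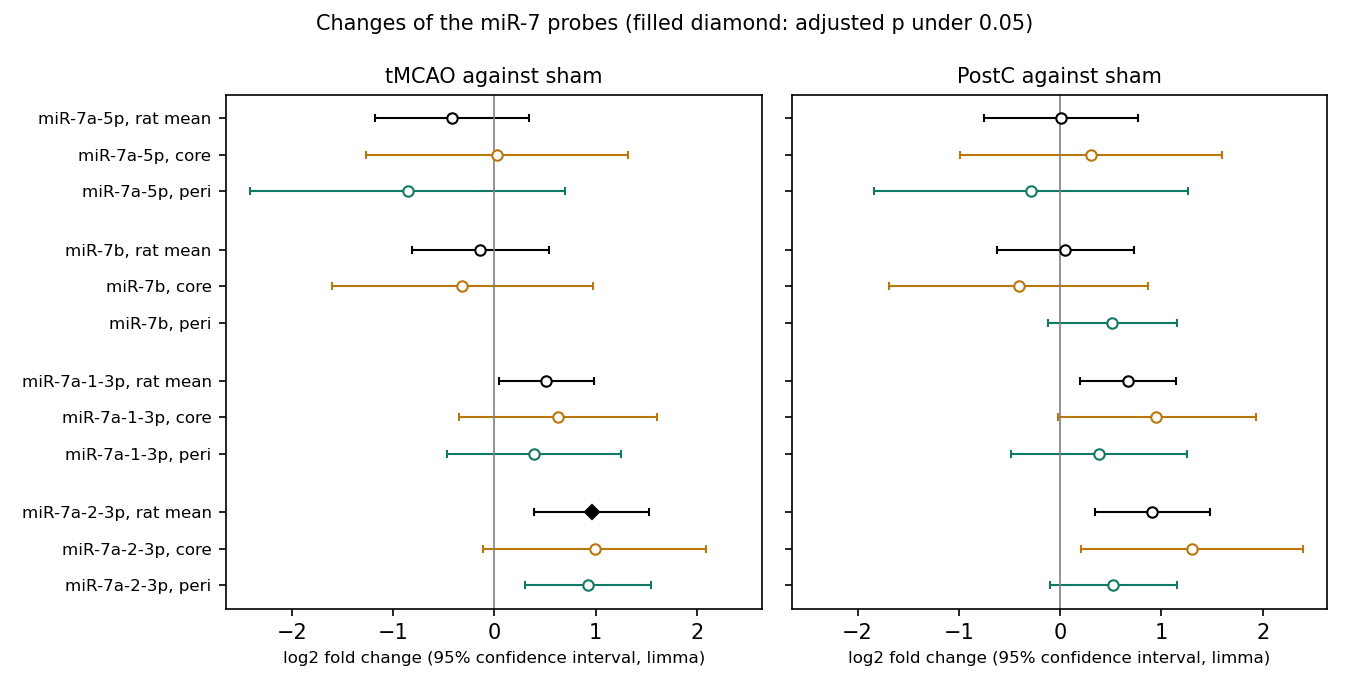
Log2 fold change against sham (horizontal axes, with the 95% confidence interval from limma) of each miR-7 probe in tMCAO and in PostC, for the mean of both regions per rat (black), core (brown) and peri (green). The filled diamond marks the only value with an adjusted p under 0.05, miR-7a-2-3p in tMCAO at 0.96, and miR-7b in tMCAO peri is left out because no array there measured it above the limit.

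The call for miR-7a-2-3p depended on the processing and on single rats. It was lost without any 1 of 5 of the 6 rats (adjusted p up to 0.157) and remained without tMCAO rat 3 (log2 fold change 1.13, adjusted p = 0.0209), and 6 of 13 other settings also lost it, with a log2 fold change between 0.51 and 1.47 over the 13. The probe was above the detection limit on 5 of 6 sham arrays and 4 of 6 tMCAO arrays, with median spots of 136 to 199 units in sham and 110 to 363 units in tMCAO, so the conditions overlapped before normalisation. Without the arrays on which empty spots were brighter than miRNA spots, which left tMCAO rats 1 and 2 and also dropped 3 PostC arrays from the shared estimate of the spread, miR-7a-2-3p was called in core (1.15, adjusted p = 0.0428) and in peri (1.10, adjusted p = 0.0204) as well as in the rat means (1.13, adjusted p = 0.0171). Leaving out only tMCAO rat 3 gave the same values in core and peri without a call (adjusted p = 0.265 and 0.131).

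**Figure D4:**
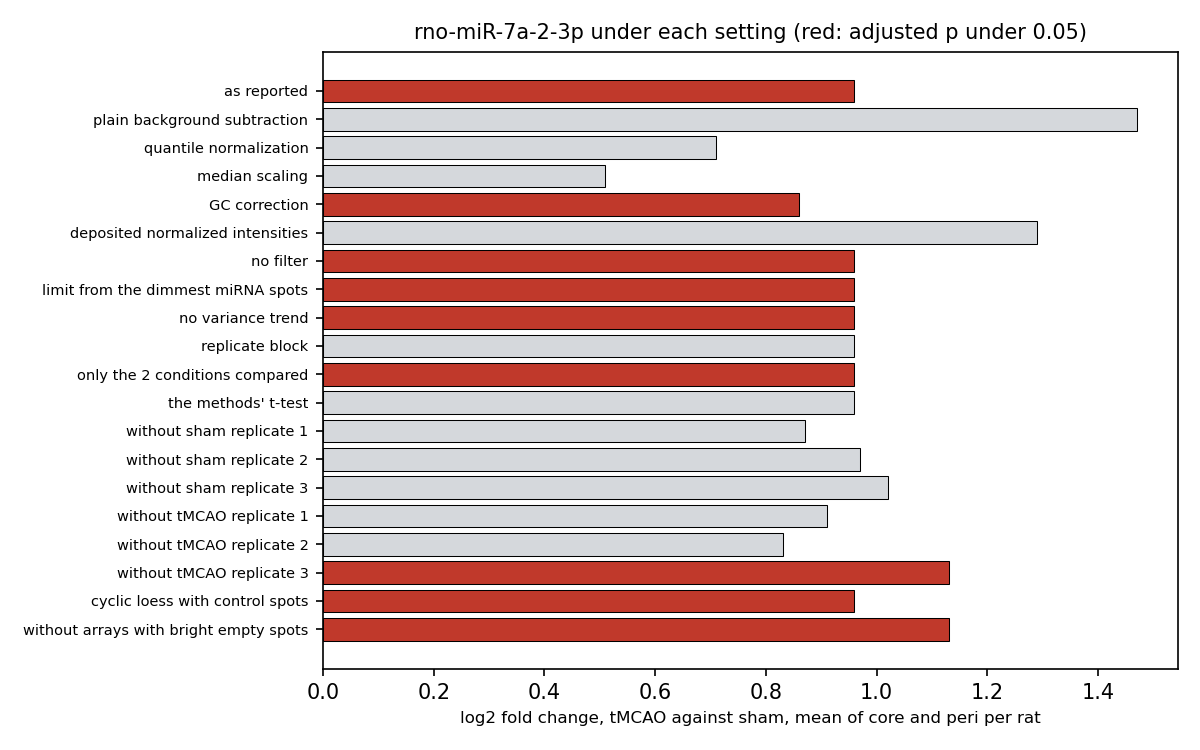
Log2 fold change of miR-7a-2-3p from sham to tMCAO in the mean of both regions per rat (horizontal axis) under the reported setting and each alternative, with red bars where the adjusted p was under 0.05. The value was above 0 in all 20 settings shown and past the threshold in 9 of them, the reported setting included.

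PostC was compared with the same sham rats, so its values share their controls with those of tMCAO. miR-7a-2-3p was at 9.74, 8.34 and 7.71 in PostC core and 7.84, 7.69 and 8.34 in PostC peri, against a highest sham array of 7.65. The log2 fold change of the rat means was 0.91 (SE 0.26, 95% interval 0.34 to 1.48, unadjusted p = 0.00488) and did not pass after adjustment (limma, adjusted p = 0.248). Plain background subtraction moved it to 2.49 (adjusted p = 0.383). Here 0.188% of probes, a single one, were called in the rat means. In core the log2 fold change was 1.30 (SE 0.49, adjusted p = 0.241) and in peri 0.52 (SE 0.29, adjusted p = 0.991), and without 1 rat the core value ran from 0.73 (without PostC rat 1) to 1.75 (without PostC rat 3), while plain background subtraction gave 3.64. The peri value was 0.16 under quantile normalisation and 1.34 under plain background subtraction. None of the 532 probes (0%) was called in either region by limma, with 90 in core and 14 in peri at an unadjusted p under 0.05. The rats did not overlap in the mean, in core or in peri, against a background of 18.2%, 22% and 5.08% of probes.

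In order, the group means of miR-7a-2-3p were 8.59 ± 1.04 in PostC core, 8.35 ± 0.31 in tMCAO peri, 8.28 ± 0.35 in tMCAO core, 7.95 ± 0.34 in PostC peri, 7.43 ± 0.22 in sham peri and 7.29 ± 0.10 in sham core (SD, n = 3 each). The only neighbours in this order whose rats did not overlap were PostC peri and sham peri. Taking both conditions at once, a view chosen after the values were seen, all 12 tMCAO and PostC arrays were above all 6 sham arrays for miR-7a-2-3p. It was the single probe of 532 (0.188%) to be so placed, and no probe had all 12 arrays below sham. In the deposited normalised intensities the same order held, with 59.4 to 106 units in sham, 143 to 291 in tMCAO and 116 to 591 in PostC. It held after GC correction too, but under quantile normalisation 7 of the 12 arrays lay above sham, under median scaling 9 and under plain background subtraction 11.

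miR-7a-1-3p was at 9.23, 8.79 and 9.95 in PostC core and 9.03, 8.80 and 8.06 in PostC peri. The means per rat, 8.79 to 9.13, lay above those of sham (18.2% of probes did not overlap), and the log2 fold change was 0.67 (SE 0.21, 95% interval 0.20 to 1.14, unadjusted p = 0.00959, adjusted p = 0.26). In core it was 0.95 (SE 0.44, adjusted p = 0.294) with no overlap of rats (22% of probes), and in peri 0.38 (SE 0.40, adjusted p = 0.991) with overlap. In order, the group means of miR-7a-1-3p were 9.32 ± 0.59 in PostC core, 9.00 ± 0.44 in tMCAO core, 8.64 ± 0.48 in tMCAO peri, 8.63 ± 0.51 in PostC peri, 8.37 ± 0.36 in sham core and 8.25 ± 0.54 in sham peri (SD, n = 3 each), with no neighbours apart by more than their spread. For the guides the log2 fold change of the rat means was 0.01 (SE 0.34, adjusted p = 0.988) for miR-7a-5p and 0.05 (SE 0.31, adjusted p = 0.965) for miR-7b. In core the log2 fold change was 0.31 for miR-7a-5p and −0.41 for miR-7b, and in peri −0.29 and 0.51, with adjusted p of 0.735 or more. miR-7b was above the limit on 3 of 6 arrays in each condition, and plain background subtraction moved it to 1.26 in the rat means and 3.26 in peri, neither called, so its size of change is not settled.

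By strand, none of the 32 tests of the guides and 6 of the 32 tests of the passengers had an unadjusted p under 0.05. The 6 were both passengers in the rat means of tMCAO (where 31.4% of all probes passed that limit) and of PostC (14.1%), and miR-7a-2-3p in tMCAO peri (15.2%) and PostC core (16.9%). These tests share rats and arrays and are not independent of each other. The median log2 fold change of the 4 probes was 0.18 in tMCAO and 0.36 in PostC for the means per rat, against −0.02 and 0.04 over all probes. The members went both ways in tMCAO, and under median scaling, which moved the median of all probes to −0.21, 3 of the 4 tMCAO values were below 0 (−1.10 for miR-7a-5p, −0.21 for miR-7b and −0.10 for miR-7a-1-3p).

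Whether postconditioned rats differed from tMCAO rats was compared directly, with the tMCAO rats as the shared reference. No miR-7 probe was called in the means per rat (5.64% of probes called), in core (2.26%) or in peri (0%), nor did any have an unadjusted p under 0.05. The log2 fold change in the rat means was 0.43 (95% interval −0.33 to 1.18) for miR-7a-5p, 0.16 (−0.31 to 0.63) for miR-7a-1-3p and −0.04 (−0.61 to 0.53) for miR-7a-2-3p. Plain background subtraction turned miR-7a-2-3p to 1.02 and quantile normalisation turned miR-7a-1-3p to −0.17. These intervals contain changes of over 1.4-fold for each of the 3, so likeness of PostC and tMCAO is not shown. For miR-7b, above the limit on 1 of 6 tMCAO and 3 of 6 PostC arrays, the fitted difference of 0.19 is of uncertain size. No test of a difference between the core change and the peri change, in any of the 3 pairs of conditions, passed for a miR-7 probe (limma, lowest unadjusted p = 0.193, lowest adjusted p = 0.65, 0% of probes called in each).

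Region was compared within rats. Over all 9 rats core minus peri was 0.31 (SE 0.50) for miR-7a-5p, 0.36 (SE 0.30) for miR-7b, 0.39 (SE 0.28) for miR-7a-1-3p and 0.14 (SE 0.23) for miR-7a-2-3p, none past the test (limma, adjusted p 0.729 to 0.867, 0.752% of probes called). Core was higher in 3 of 9 rats for miR-7a-5p and miR-7a-2-3p, in 6 for miR-7b and in 5 for miR-7a-1-3p. Within sham, tMCAO or PostC no miR-7 probe was called either (lowest unadjusted p = 0.137, lowest adjusted p = 0.558), where 0%, 0.94% and 0% of probes were.

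The probes whose levels ran most like miR-7a-5p over the 18 arrays were let-7f-5p (Pearson r 0.82), miR-26b-5p (0.74), miR-411-3p (0.74), miR-218a-5p (0.73) and miR-323-3p (0.72). After removing the 6 group means the order was let-7f-5p (0.95), miR-411-3p (0.80), miR-26b-5p (0.79), miR-218a-5p (0.78) and miR-125a-5p (0.76). let-7f-5p, of the large let-7 family, read 12.05 on tMCAO core 2, 11.93 on tMCAO peri 1, 12.01 on tMCAO peri 3 and 11.67 on PostC peri 3. These were its 4 lowest arrays and the same 4 as for miR-7a-5p, and the other 14 read 12.07 to 13.18. The same 4 were also the lowest of miR-26b-5p (8.57 to 9.97, the others from 10.23) and miR-218a-5p (7.83 to 9.18, the others from 9.36). For miR-411-3p and miR-323-3p the 4 lowest arrays were not all the same. The arrays share the 18 libraries and their normalisation. In the order given over all arrays, the 5 nearest probes had 31.8%, 33.3%, 40%, 38.1% and 52.4% GC, against a median of 50% over the probes tested.

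**Figure D5:**
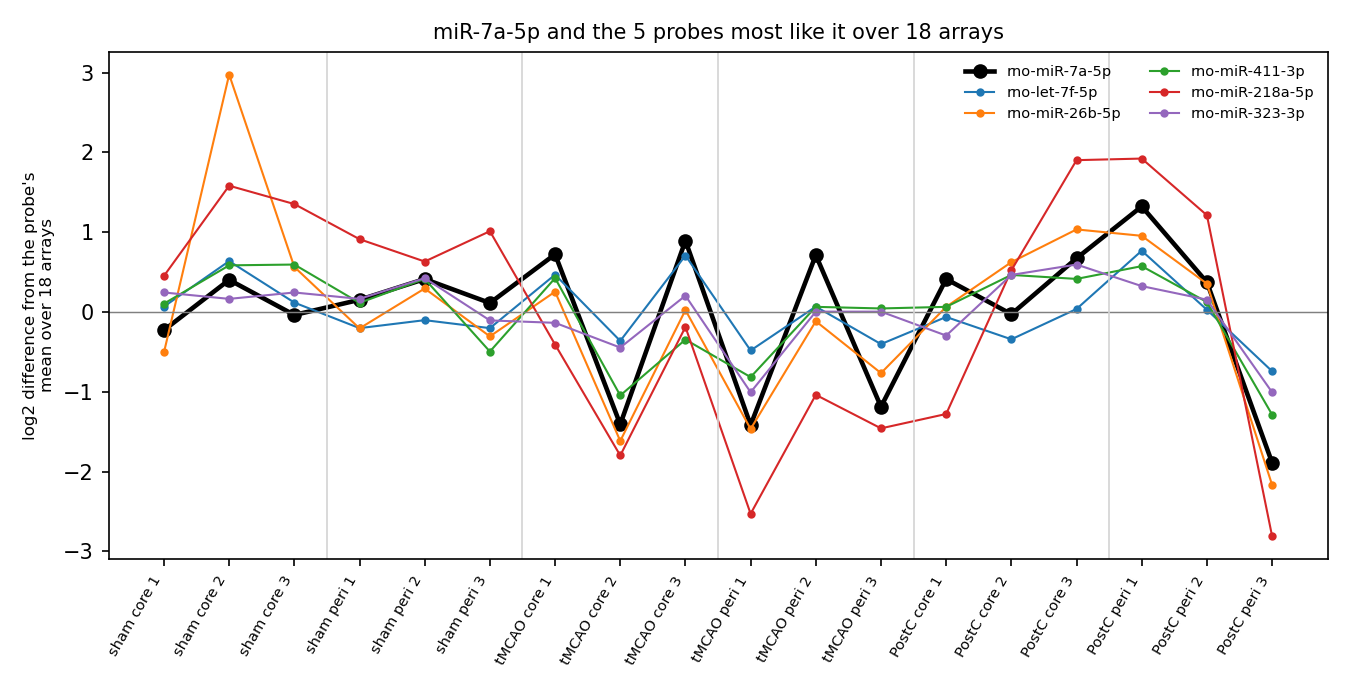
Difference of each probe from its own mean over 18 arrays (vertical axis, log2) for miR-7a-5p (black) and the 5 probes most like it, by array along the horizontal axis, with lines only to guide the eye. miR-7a-5p, let-7f-5p, miR-26b-5p and miR-218a-5p were each at their 4 lowest values on tMCAO core 2, tMCAO peri 1, tMCAO peri 3 and PostC peri 3.

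The other miR-7 probes were not among these. Their correlation with miR-7a-5p over the 18 arrays was 0.45 for miR-7b, 0.35 for miR-7a-1-3p and −0.21 for miR-7a-2-3p. On the same 4 arrays miR-7a-5p read 9.02, 8.67, 8.83 and 8.12 after GC correction, in the order given for let-7f-5p, against 9.70 to 10.21 in sham. The slope of signal on GC content had a correlation of −0.30 with miR-7a-5p over the arrays. It was steepest on tMCAO core 2, where the correction moved miR-7a-5p from 8.78 to 9.02. The part of GC content in the low values was not tested.

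Of 3 other miRNAs listed beside the family, 1 was called in tMCAO, where 11.8% of all probes were. miR-153-3p, a neuronal miRNA, fell by 1.35 on the log2 scale in the means per rat (SE 0.38, limma, adjusted p = 0.0452). That call too was lost without any 1 of 5 of the 6 rats (adjusted p up to 0.161) and remained without tMCAO rat 3 (adjusted p = 0.0285). Its log2 fold change ran from −1.55 to −0.98 with 1 rat left out. In core it read 13.24, 12.58 and 12.03 in sham and 10.73, 8.03 and 10.40 in tMCAO, without overlap (41% of probes), and in peri 11.29, 12.72 and 12.50 in sham and 12.01, 12.61 and 12.50 in tMCAO, which overlapped. The probe for miR-671, which names no arm, had a fitted log2 fold change of 0.00 (SE 0.21, adjusted p = 0.997). It was above the limit on 8 arrays, 1 of them among the 6 of tMCAO. Its value ran from −0.30 to 0.45 over the alternatives, so the size of a change is uncertain. miR-375-3p, of neuroendocrine cells, was above the limit on 3 of 6 sham arrays and on no tMCAO array, reading 6.51 to 7.11 in sham and 6.35 to 6.84 in tMCAO, and no fold change is given.

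Marker miRNAs of other cells were read in the same comparison, where 7.33% of all probes were called lower and 4.51% higher. Of 9 neuronal markers, 4 were called lower in the tMCAO rat means (miR-218a-5p, miR-137-3p, miR-153-3p and miR-9a-5p) and none higher, the lowest log2 fold change being −2.23 (miR-218a-5p) and the highest 0.44 (miR-128-3p). Their summed level was 98700 to 120000 units in sham core and 66900 to 81200 in tMCAO core, without overlap, and 87000 to 112000 in sham peri and 93800 to 111000 in tMCAO peri, with overlap. Of 6 leukocyte markers 5 were tested and 2 were called higher (miR-150-5p and miR-155-5p), with miR-155-5p above the limit on 3 arrays and miR-150-5p on all 18, and with values from −0.28 for miR-142-5p to 0.92 for miR-150-5p. The leukocyte sum ran from 3300 to 4030 in sham core and 7590 to 12400 in tMCAO core, and from 3070 to 3590 in sham peri and 3470 to 4710 in tMCAO peri. miR-142-3p, the defining leukocyte marker, was above the limit on 1 array.

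Of 3 red blood cell markers 2 were tested. miR-451-5p, above the limit on all 18 arrays, read 0.14 higher in tMCAO on the log2 scale and was not called (adjusted p = 0.808), miR-486, above it on 9, was called higher (1.39, adjusted p = 0.0095), and miR-144-3p was above it on no array. The red blood cell sum was 2420 to 4270 in sham core and 2970 to 4180 in tMCAO core, and 1300 to 2000 in sham peri and 1620 to 2470 in tMCAO peri. Neither oligodendrocyte marker was called, at −2.08 for miR-338-3p (adjusted p = 0.0583) and −1.23 for miR-219a-5p (adjusted p = 0.0708), and their sum was 1940 to 12600 in sham core and 309 to 686 in tMCAO core, and 363 to 1720 in sham peri and 418 to 651 in tMCAO peri. The part of these cells in the rise of miR-7a-2-3p in the rat means was not tested.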

How the data were processed

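Total RNA (extracted with a miRNeasy kit per the labels, with Trizol per the methods) was poly(A)-tailed, tagged and hybridised by a service provider to a microfluidic chip. The authors deposited spot intensities for each array and a table of normalised intensities. Per the methods the background was subtracted, signals were normalised by a local regression filter, and data were taken to log2 and median-centred. The deposited table is on a linear scale, with column medians of 36.3 to 62.5 units. Each of its 18 columns was closest to its own array's spots. Here spot intensities were corrected by normexp (offset 50), taken to log2, normalised by cyclic loess on the 3044 miRNA spots and averaged over 4 spots per probe. Detection and the filter (at least 3 arrays, 532 of 761 probes) used 612 empty spots per array. The offset compresses differences of dim probes. Conditions were compared with limma 3.58.1 (under R 4.3.3), its moderated statistics using a trend of variance on intensity, on rat means, core or peri, with 3 rats a condition and all conditions in the fit. Regions were compared on differences within rats. P-values were adjusted by Benjamini-Hochberg over all 532 probes (threshold 0.05). Rats are stated to be separate animals. The scripts were tested on simulated data.

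The text names the 4 miR-7 probes, 3 related miRNAs and the 5 probes most correlated with miR-7a-5p, over all arrays and over deviations from group means, besides marker lists. Members and lists were chosen with earlier results of these data known. Alternatives covered background correction, normalisation, GC content, starting values, filters, detection limit, variance model, pairing, samples in the fit, the methods' t-test and each rat left out. Loess with control spots, and leaving out the arrays with bright empty spots, were chosen after seeing the data. Rat numbers name different rats in each condition. Arrays give no read depth, and their number limits precision. Target sequences are those in the files. No genome of this species was used, so no positions are given. Figures were drawn with matplotlib 3.10.9.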

Additional observations from a re-analysis of the deposited data

How the results depend on the processing

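The call of miR-7a-2-3p in the tMCAO rat means, the only miR-7 call, kept its direction under 13 alternatives and past the threshold under 7. The number of miR-7 probes called was 0 under plain background subtraction (miR-7a-2-3p 1.47, adjusted p = 0.257), quantile normalisation (0.71, 0.146), median scaling (0.51, 0.136), the deposited normalised intensities (1.29, 0.0691), the replicate block (0.96, 0.0719) and the methods' t-test (0.96, 0.0855). It was 2 under GC correction, and 1 each in core and peri without arrays with bright empty spots. Leaving out 1 rat at a time gave 0 to 1 calls in the rat means (0.83 to 1.13, adjusted p 0.0209 to 0.157) and 0 to 0 in every other comparison. Other values ran through 0 on leaving out 1 rat, none of them called. For miR-7b they ran from −0.47 to 0.19 in the tMCAO rat means, −0.70 to 0.26 in tMCAO core, −0.28 to 0.38 in the PostC rat means and −0.98 to 0.17 in PostC core. For miR-7a-5p they ran from −0.39 to 0.76 in tMCAO core, −0.35 to 0.39 in the PostC rat means, −0.99 to 0.62 in PostC peri and −0.04 to 0.78 for core against peri over all rats, and for miR-7a-2-3p from −0.07 to 0.35 in the last and from −0.30 to 0.09 between PostC and tMCAO. Among values that kept their sign, miR-7a-1-3p ran from 0.39 to 0.82 in tMCAO core, 0.08 to 0.63 in tMCAO peri and 0.07 to 0.67 in PostC peri. Between PostC and tMCAO rat means miR-7a-5p ran from 0.06 to 0.80 and miR-7a-1-3p from 0.08 to 0.25. Core against peri over all rats ran from 0.10 to 0.55 for miR-7b and 0.19 to 0.54 for miR-7a-1-3p. The fall of miR-153-3p was not called under quantile normalisation (−1.04), GC correction (−1.14), the deposited intensities (−1.44), the replicate block (−1.35) or the methods' t-test (−1.35).

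Values that changed sign were all uncalled. For tMCAO rat means they were miR-7b at 0.52 under plain subtraction and 0.09 under GC correction, and miR-7a-1-3p at −0.10 under median scaling. In tMCAO core miR-7a-5p read −0.16 under median scaling, −0.04 in the deposited values and −0.39 without arrays with bright empty spots, and miR-7b 0.06 under GC correction. In tMCAO peri miR-7a-1-3p read −0.53 under median scaling. For PostC rat means miR-7a-5p read −0.05 (quantile), −0.34 (median scaling) and −0.14 (deposited), and miR-7b −0.11 (quantile) and −0.08 (loess with control spots). In PostC peri miR-7a-1-3p read −0.04 (quantile) and −0.07 (median scaling), and miR-7a-5p 0.62 without arrays with bright empty spots. Between PostC and tMCAO miR-7a-1-3p read −0.03 (plain subtraction) and −0.17 (quantile), and miR-7a-2-3p 1.02 (plain subtraction) and 0.17 (median scaling). Over the alternatives other than left-out rats, miR-7a-1-3p ranged from −0.10 to 1.16 in the tMCAO rat means, 0.32 to 1.46 in tMCAO core, 0.34 to 1.14 in the PostC rat means and 0.75 to 1.79 in PostC core, and miR-7a-2-3p from 0.69 to 1.89 in tMCAO core. The cause was not tested.

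Over all probes, calls in the tMCAO rat means numbered 63 (24 higher), 119 (31 higher) under quantile normalisation and 130 (26 higher) under median scaling, which moved the median of all probes to −0.10 and −0.21. Same-numbered samples of different conditions correlated at −0.40 to 0.23 in their deviations and others at −0.39 to 0.36, so the numbers did not pair them. The filter to probes detected on every array kept 0 of the 4 probes and gave no value, and a slide or scan block was not run because the files used name none.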
